A study of Rattus norvegicus with 3 samples.

Results

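The 8 genes Nrgn, Camk2a, Neurod6, Tbr1, Bcl11b, Emx1, Ppp1r1b and Drd1 are known as markers of forebrain neurons and were followed through the cerebellar cortex of rats after a cerebral infarct. The set was built around Nrgn, which was chosen because earlier values of these same arrays showed a high contralateral to control ratio, and its other members are cortical and striatal markers. Of the 38973 genes on the arrays, 7 of the 8 members had a probe whose accession mapped to the symbol, and no probe mapped to Emx1. Wistar rats, male and 9 weeks old, underwent transient occlusion of the right middle cerebral artery (MCAO) or a sham operation, and the cerebellar cortex was taken 2 days later. The contralateral sample was the left cerebellar cortex of MCAO rats, the ipsilateral sample was the right cerebellar cortex of the same 4 MCAO rats, and the control sample was the left cerebellar cortex of 4 sham-operated rats. Tissue of 4 rats was combined for each sample and each sample was read on 1 array, so no value has a replicate, no test was run, and the spread between rats is unknown.

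Neurogranin, the protein of Nrgn, is a small postsynaptic protein that binds calmodulin when calcium is low and releases it when calcium rises, and it is abundant in principal neurons of the cortex, hippocampus and striatum. Calmodulin set free in this way activates the kinase CaMKII, whose alpha subunit is encoded by Camk2a. In the cerebellum neurogranin is known from Golgi cells, the inhibitory interneurons of the granular layer, and Camk2a is known from Purkinje cells, so neither gene marks the forebrain alone. On the control array, from sham-operated cerebellum, Neurod6, Ppp1r1b and 1 of the 2 Drd1 probes were also well above background. These arrays therefore do not show the genes as absent from cerebellar tissue.

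Camkv and Tac1 are a cortical and a striatal gene whose contralateral and ipsilateral ratios to control lay close to those of Nrgn. The promoter of Nrgn is shown with theirs. Each window runs from 250 bases before to 50 bases after the annotated start and comes from RefSeq on the build GRCr8, at chr8:45452368-45452667 on the minus strand for Nrgn, chr8:117505189-117505488 on the plus strand for Camkv and chr4:36645333-36645632 on the plus strand for Tac1. Capitals mark CAGATG, a form of the E-box that basic helix-loop-helix factors such as the NeuroD proteins bind, and GGGCGG, the GC box, each searched on both strands with no overlap between them in these windows.
Nrgn: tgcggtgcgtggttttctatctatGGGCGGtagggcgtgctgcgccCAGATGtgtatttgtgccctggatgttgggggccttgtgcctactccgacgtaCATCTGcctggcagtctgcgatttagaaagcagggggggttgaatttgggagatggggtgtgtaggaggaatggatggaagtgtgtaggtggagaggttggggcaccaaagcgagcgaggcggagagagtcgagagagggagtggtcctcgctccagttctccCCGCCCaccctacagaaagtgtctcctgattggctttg
Camkv: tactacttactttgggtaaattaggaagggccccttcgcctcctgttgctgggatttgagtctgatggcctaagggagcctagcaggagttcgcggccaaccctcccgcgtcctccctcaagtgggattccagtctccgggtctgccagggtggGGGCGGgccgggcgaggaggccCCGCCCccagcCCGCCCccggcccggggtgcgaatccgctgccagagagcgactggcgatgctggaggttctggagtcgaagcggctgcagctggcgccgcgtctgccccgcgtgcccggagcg
Tac1: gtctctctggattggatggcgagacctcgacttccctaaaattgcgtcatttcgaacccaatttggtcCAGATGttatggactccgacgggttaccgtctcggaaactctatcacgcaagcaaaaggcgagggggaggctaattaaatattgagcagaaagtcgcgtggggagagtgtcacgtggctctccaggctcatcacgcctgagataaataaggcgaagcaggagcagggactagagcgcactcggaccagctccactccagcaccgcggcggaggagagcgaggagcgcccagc
CAGATG was present 2 times in the window of Nrgn and 1 time in that of Tac1, and was not found in that of Camkv. GGGCGG was present 2 times for Nrgn and 3 times for Camkv, and was not found for Tac1. Of all 33469 promoter windows, 16.6% held CAGATG and 33.1% held GGGCGG, so both are common. Windows were found for 6 of the 8 members (not for Bcl11b or Ppp1r1b). Among these, CAGATG was also present 2 times for Neurod6, itself a NeuroD factor, and GGGCGG 4 times for Emx1, while Camk2a, Tbr1 and Drd1 held neither.

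Values are log2 signals scaled so that the 75th percentile of all spots was the same on each array. The scanner software marks whether a spot is well above background, and where it is not the probe gives only a bound. Here a gene is detected when at least 1 of its probes has that mark on any array, and measurable when all of its probes have it on each of the 3 arrays. The error given with a ratio (scanner error) comes from the error the software reports per spot and covers neither rats nor hybridisations. The tissue label was checked first. All 12 granule cell markers and 10 of the 11 Purkinje cell markers on the arrays were measurable.

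Nrgn was read by 1 probe printed in 10 spots, all well above background on every array. Its log2 signal was 7.35 on the contralateral array (SD 0.07 over the 10 spots), 5.31 on the ipsilateral array (SD 0.18) and 5.52 on the control array (SD 0.08). The lowest contralateral spot, at 7.24, lay above the highest spots of the ipsilateral array, at 5.50, and of the control array, at 5.73, while the spots of the ipsilateral and control arrays overlapped. The contralateral to control log2 ratio was 1.83 (scanner error 0.22), or 3.55-fold, and the contralateral to ipsilateral ratio was 2.04 (scanner error 0.23), or 4.11-fold. These fell to 1.19 and 0.96 after normexp background correction and to 1.15 and 1.25 with 50 added to the signal. The ipsilateral to control ratio was -0.21, smaller than its scanner error of 0.24, and it turned to 0.23 after normexp. Among the 11254 measurable genes with a symbol, Nrgn ranked 16 from the highest in the contralateral to control ratio and 5 in the contralateral to ipsilateral ratio. Nrgn was chosen for a high contralateral to control ratio, so these ranks only describe it. As RNA came from whole tissue, more cells that hold a transcript and more transcript per cell cannot be told apart, for this gene or for any below.

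**Figure D1:**
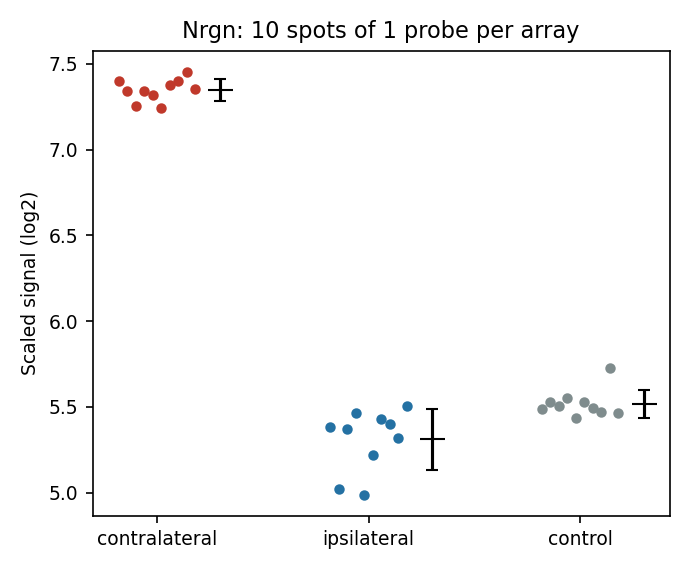
Scaled log2 signal of the 10 spots of the Nrgn probe on the contralateral, ipsilateral and control array, 1 point per spot, with the mean and SD over spots in black. The contralateral spots start at 7.24, above every spot of the other arrays, whose highest is 5.73.

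Camk2a, the CaMKII alpha subunit that neurogranin acts on through calmodulin, was read by 2 probes. The first had a log2 signal of 4.42 on the contralateral, 4.84 on the ipsilateral and 4.55 on the control array. Its contralateral to control ratio was -0.13 (scanner error 0.29). The second was well above background on both MCAO arrays, at 4.27 and 4.31, and not on the control array, which makes its contralateral signal at least 1.68-fold and its ipsilateral signal at least 1.73-fold that of the control array. The contralateral to ipsilateral ratio was -0.42 (scanner error 0.30) for the first probe and -0.04 (scanner error 0.38) for the second. With the scaling used here, neither probe of Camk2a had its contralateral signal above the ipsilateral one, and the 2 probes disagreed on the control array. Without scaling the second probe read 20.3 on the contralateral and 16.0 on the ipsilateral array, so its order depends on the scaling.

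Neurod6 encodes a basic helix-loop-helix factor of cortical and hippocampal pyramidal neurons. Its log2 signal was 9.98 on the contralateral, 10.09 on the ipsilateral and 10.03 on the control array, with a contralateral to control ratio of -0.05 (scanner error 0.20). The 3 arrays were thus level for this gene. Tbr1, a T-box factor of deep-layer cortical neurons, was not well above background on any array, so no ratio is given for it. Emx1, a homeobox factor of the dorsal telencephalon, had no value.

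Bcl11b (also Ctip2), a zinc finger factor of deep-layer cortical projection neurons and of striatal medium spiny neurons, was the other member with a contralateral ratio above 1. Its first probe had a log2 signal of 5.28 on the contralateral, 4.71 on the ipsilateral and 3.45 on the control array. Its second probe had 3.98, 3.81 and 3.36 in the same order. In both probes the contralateral array was highest and the control array lowest. Averaged over the 2 probes, the contralateral to control ratio was 1.23 (scanner error 0.36) and the ipsilateral to control ratio was 0.86 (scanner error 0.40), with a contralateral to ipsilateral ratio of 0.37 (scanner error 0.33). The order of the arrays thus differed from that of Nrgn, since both MCAO samples of Bcl11b lay above the control sample. The signals were dim, and the contralateral to control ratio was 0.43 after normexp background correction and 0.34 with 50 added to the signal, while the brighter probe alone gave 1.83. The contralateral to ipsilateral ratio turned to -0.09 after normexp, so which MCAO array is higher depends on the processing.

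The striatal members did not separate the contralateral array. Ppp1r1b encodes DARPP-32, the protein of medium spiny neurons that inhibits protein phosphatase 1 once protein kinase A has phosphorylated it. Its 2 spots gave a log2 signal of 12.35 on the contralateral, 12.33 on the ipsilateral and 12.03 on the control array, with a contralateral to control ratio of 0.33 (scanner error 0.20) and a contralateral to ipsilateral ratio of 0.02 (scanner error 0.20). Drd1 encodes the dopamine D1 receptor, which raises cyclic AMP in the medium spiny neurons of the direct pathway. Its first probe had 8.75 on the contralateral, 8.46 on the ipsilateral and 9.04 on the control array, a contralateral to control ratio of -0.29 (scanner error 0.20) and an ipsilateral to control ratio of -0.58 (scanner error 0.20). Its second probe was well above background on the ipsilateral array alone, at 4.46, at least 2.53-fold the control array and at least 2.42-fold the contralateral array. The 2 Drd1 probes thus placed the ipsilateral array at opposite ends.

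**Figure D2:**
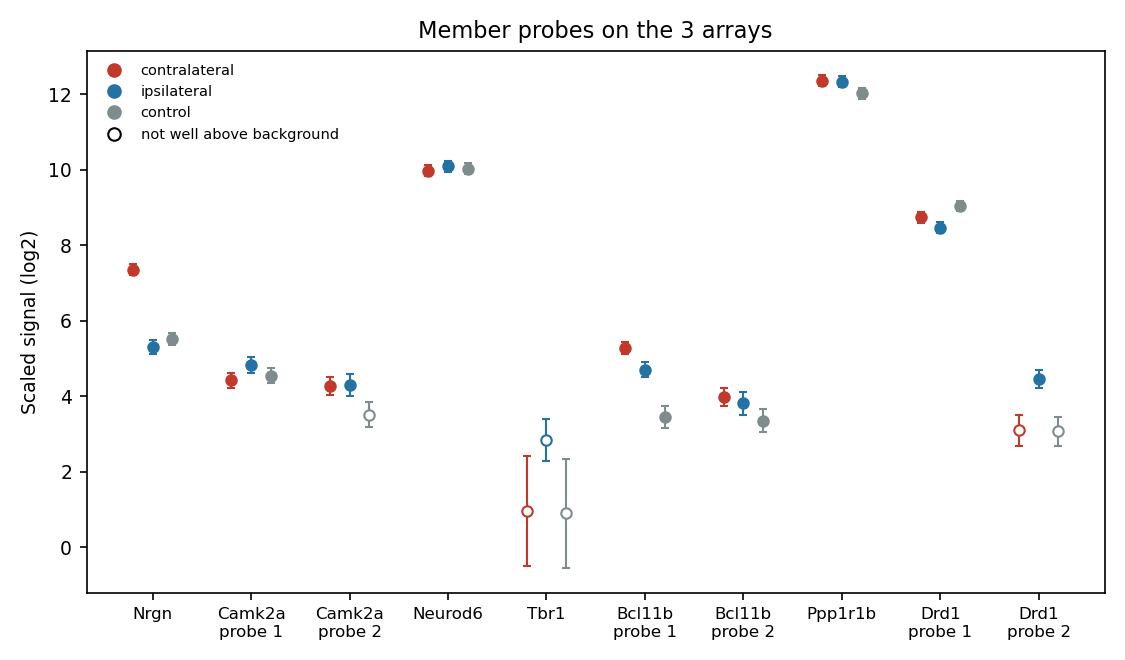
Scaled log2 signal of every member probe on the 3 arrays, with the scanner error as bars and open circles where a probe is not well above background, as for Tbr1 on all 3 arrays. Nrgn is the member whose contralateral signal, 7.35, stands apart from both other arrays, and both Bcl11b probes step down from contralateral to control.

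Of the 8 members 6 were detected, and 4 (Nrgn, Neurod6, Bcl11b and Ppp1r1b) were measurable. Of these 4, 2 had a contralateral to control log2 ratio above 1 and 0 had a ratio below -1. Over all 22090 measurable genes, 1.41% were above 1 and 0.856% below -1, and over all 38973 genes 4.70% and 6.48%. The 22090 genes held 312 above 1 and 189 below -1, which became 261 and 254 with scaling to spike-in probes, 218 and 325 without scaling, 51 and 20 with normexp and 58 and 37 with 50 added. Nrgn was chosen on this ratio, so nothing is read from the count. In the ipsilateral to control ratio 0 of the 4 were above 1 and 0 below -1, against 3.10% and 0.801% of the 22090 genes. That background leaned upward, with 685 genes above 1 and 177 below -1, but held 367 and 404 with scaling to spike-in probes, 134 and 1141 without scaling, 116 and 12 with normexp and 95 and 31 with 50 added. In the contralateral to ipsilateral ratio Nrgn alone of the 4 was above 1 and 0 were below -1, against 0.217% (48 genes) and 1.54% (341 genes), which became 83 and 198 with scaling to spike-in probes, 114 and 165 with quantile normalization, 164 and 111 without scaling, 3 and 14 with normexp, where Nrgn itself was below 1, and 13 and 17 with 50 added. This ratio uses the contralateral signal of Nrgn, for which Nrgn was chosen, so nothing is read from this count either. The contralateral and ipsilateral ratios share the control array, and their values stand side by side only as a description.

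Whether further forebrain genes showed the contrast of Nrgn was asked of 69 genes in 4 lists, those of cortex, hippocampus, striatum and forebrain interneurons, none of them a member. Of these, 64 were on the arrays and 39 were measurable. A log2 ratio above 1 to both the control and the ipsilateral array, as for Nrgn, was found for 2 of the 39, Camkv and Tac1. Over all 22090 measurable genes 41 had it, or 0.186%. The other 37 of the 39 did not, and the median contralateral to control ratio of the 39 was 0.06. The lists were chosen with earlier results of these data known, so nothing is read from 2 of 39 beside the share of all measurable genes.

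Camkv, a cortical pseudokinase of synaptic vesicles that binds calmodulin, had a log2 signal of 6.40 on the contralateral, 4.78 on the ipsilateral and 4.73 on the control array. Its contralateral to control ratio was 1.68 (scanner error 0.23) and its contralateral to ipsilateral ratio 1.62 (scanner error 0.25). Tac1, which encodes the precursor of substance P, a peptide of direct-pathway striatal neurons, had 7.40, 5.69 and 5.46 in the same order, with ratios of 1.93 (scanner error 0.22) and 1.70 (scanner error 0.22). As with Nrgn, the contralateral array stood above the other 2, which lay close to each other. With normexp background correction the contralateral to control ratio was 0.87 for Camkv and 1.23 for Tac1, and with 50 added to the signal 0.81 and 1.21. The contralateral to ipsilateral ratio was 0.56 for Camkv and 0.89 for Tac1 with normexp, and 0.79 and 1.10 with 50 added, so Camkv met neither threshold with normexp or with 50 added, and Tac1 missed the second with normexp. Htr3a, the serotonin-gated channel of a class of cortical interneurons, also had a contralateral to control ratio above 1, with log2 signals of 6.90, 6.49 and 5.67 in the same order and ratios of 1.23 (scanner error 0.21) on the contralateral and 0.82 (scanner error 0.22) on the ipsilateral side, an order like that of Bcl11b. Its contralateral to control ratio fell to 0.84 with normexp and to 0.75 with 50 added.

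The cortex list, which holds Neurod2, Slc17a7, Lamp5 and others, had a median contralateral to control ratio of 0.02 over its 17 detected genes, 10 of them above 0 and 7 below. The same median over all 27731 detected genes was 0.00. Camkv was the highest of its 14 measurable genes and Icam5, a dendritic adhesion molecule of telencephalic neurons, the lowest at -0.40 (scanner error 0.24). The striatum list had a median of 0.07 over 23 detected genes, 15 above 0 and 8 below, and its 17 measurable genes ran from Tac1 down to Rasd2, a small G protein of medium spiny neurons, at -0.44 (scanner error 0.20). Drd2, the dopamine receptor of the indirect pathway, had 0.58 (scanner error 0.20). The hippocampus list had a median of -0.17 over 5 detected genes, from Spink8 at 0.02 to Wfs1 at -0.41, and the forebrain interneuron list 0.02 over 8 detected genes, with Tac3 at -0.06 the lowest of the 4 measurable ones. Across the scalings tried, the median of the cortex list ran from -0.13 to 0.05, that of the striatum list from -0.08 to 0.10, and that of the forebrain interneuron list from -0.13 to 0.06, with changes of sign under scalings that shift all genes alike. Less the median of all detected genes, and over all settings, they ran from -0.04 to 0.02, from 0.05 to 0.18 and from -0.02 to 0.05. Among measurable genes Camkv and Tac1 were the 1 gene above 1 in each of their lists. Against the ipsilateral array the medians were -0.01 for cortex, 0.04 for striatum, -0.16 for hippocampus and 0.03 for forebrain interneurons, and without scaling, which moved all detected genes to a median of 0.35, they were 0.37, 0.42, 0.22 and 0.41. The list genes ranged from dim to bright on the control array, with Neurod2 at 10.62. The same change in signal moves the ratio of a bright gene less than that of a dim one. Whether any forebrain transcript was added was not tested. Dim measurable genes of these lists had both low and high contralateral to control ratios. Those at 0.02 or less included Icam5, Wfs1 and Spink8, with control signals of 5.28, 5.74 and 5.77. Higher ones included Pdyn at 0.71 and Cux2 at 0.66, with control signals of 3.24 and 4.43. Htr3a at 1.23, Camkv and Tac1 were also dim on the control array, at 5.67, 4.73 and 5.46. How much of each transcript the cerebellum itself holds was not tested.

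**Figure D3:**
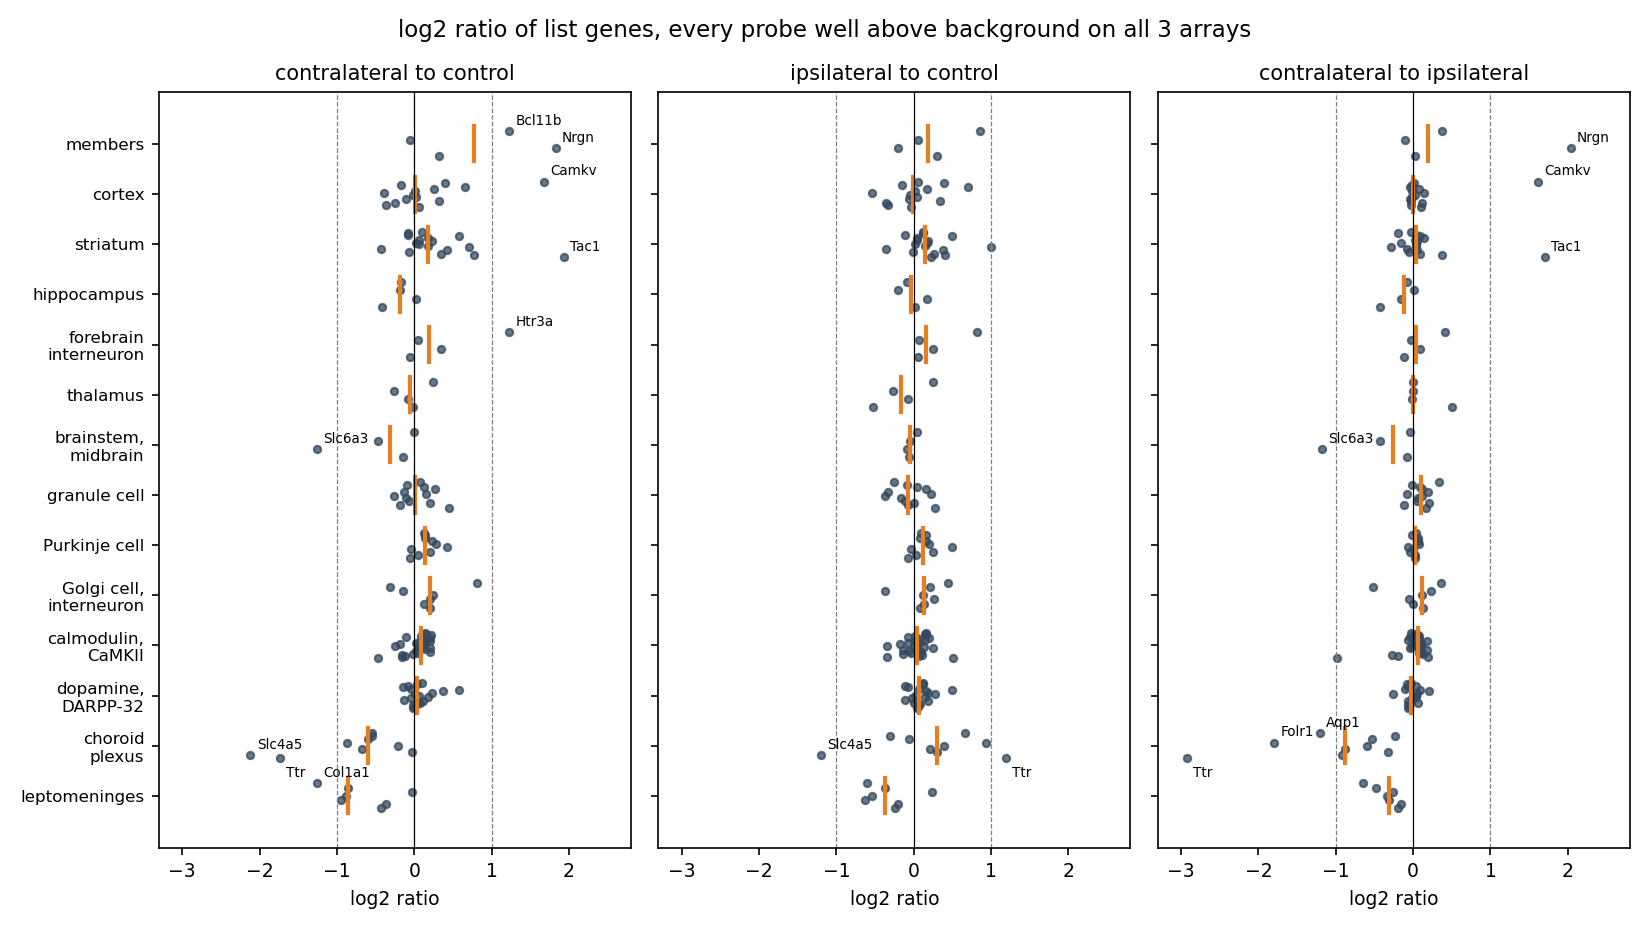
log2 ratio of each measurable gene of 14 lists (members included), 1 point per gene, with the list median in orange and dashed lines at 1 and -1. Most forebrain genes lie near 0, with Camkv at 1.68 and Tac1 at 1.93 beside Nrgn at 1.83 in the contralateral to control panel, and Ttr at -2.93 is the lowest point of the contralateral to ipsilateral panel.

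Dim forebrain probes pointed to each of the arrays. Of 84 probes of the 64 genes, 57 were well above background on all 3 arrays and 13 on none, among the latter those of the cortical factors Fezf2 and Emx2. On the contralateral array alone 3 probes were well above background, those of Vip, Six3 and Lhx2. Vip, the vasoactive intestinal peptide of cortical interneurons, was at least 3.83-fold higher there than on the control array and at least 2.89-fold higher than on the ipsilateral array. Six3, a factor of striatal development, was at least 2.34-fold and 1.76-fold higher, and Lhx2, a factor of cortical progenitors, at least 1.86-fold and 1.40-fold. On the ipsilateral array alone it was 4 probes (those of Fibcd1, Isl1 and Rprm among them), and on the control array alone 2 (Dlx2 and Sh3rf2). Dlx2, a factor of forebrain interneuron progenitors, was at least 5.02-fold higher on the control than on the contralateral array. Probes that passed on 1 array alone were therefore found for all 3 samples. This holds for probes and not always for their genes, as Fibcd1 had another probe well above background on the ipsilateral and control arrays.

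The measurable partners of neurogranin and of the other members stayed within 1 of the control array. Of 29 genes around calmodulin, CaMKII and the postsynaptic density, 27 were measurable, and none of their contralateral to control ratios was beyond 1, the highest being 0.22 for Calm3, a calmodulin gene. The median was 0.09 over the 28 detected genes, 20 of them above 0. Gap43 and Pcp4, named after their values were seen because they too bind calmodulin through an IQ motif, had -0.18 (scanner error 0.20) and 0.21 (scanner error 0.20). The 20 genes around DARPP-32 and dopamine signalling had a median of 0.03, from -0.14 for Cdk5, the kinase that turns DARPP-32 into an inhibitor of protein kinase A, to 0.58 for Drd2, over the 19 measurable ones. The 17 relatives of the members (other NeuroD, T-box, Bcl11, Emx, dopamine receptor, CaMKII, IQ motif and phosphatase inhibitor genes) had a median of 0.03 over 14 genes, from -0.23 for Ppp1r1a, another inhibitor of protein phosphatase 1, to 0.58 for Drd2 among the 11 measurable ones. Without scaling, which moved all detected genes to a median of -0.15, the medians of these 3 lists were -0.07, -0.12 and -0.13. Less the median of all detected genes, that of the calmodulin list kept its sign in every setting (0.02 to 0.09). None of the measurable genes in them showed the contralateral contrast of Nrgn.

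Golgi cells, the cerebellar cells known for neurogranin, were represented by 7 markers of Golgi cells and other interneurons, all measurable. Their median contralateral to control ratio was 0.21 and their median contralateral to ipsilateral ratio 0.12, with none beyond 1. Grm2, the metabotropic glutamate receptor of Golgi cells, had -0.32 (scanner error 0.28) and Gjd2, the gap junction protein that couples them, had 0.81 (scanner error 0.22), and 5 of the 7 markers lay above 0. The granule cell list had a median of 0.01, from Grin2c at -0.26 to Zic2 at 0.45, and the Purkinje cell list 0.14, its measurable genes running from Slc1a6 at -0.06 to Lhx5 at 0.42, and without scaling, with all detected genes at -0.15, these medians were -0.15 and -0.01. Of the 4 unipolar brush cell markers 2 were on the arrays, Lmx1a at -0.12 and Calb2 at -0.30.

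Among tissues that adjoin the cerebellar cortex, markers of choroid plexus and leptomeninges also differed between the arrays in which Nrgn differed. Those of brainstem and midbrain had a contralateral to control median near 0 over detected genes, but a lower one over measurable genes. Choroid plexus genes were low on the contralateral array, where Nrgn was high. Their median contralateral to control ratio was -0.60, with 10 of 11 genes below 0, and their median contralateral to ipsilateral ratio was -0.89, with 11 of 11 below 0. The summed signal of the 12 genes was 11966 on the contralateral, 78470 on the ipsilateral and 35808 on the control array. Most of that sum is 1 gene, and without it the sums were 2056, 3141 and 2846. This gene, Ttr (transthyretin), had the brightest signal of the list on each array, though signals of different probes do not rank abundance. It had 13.27, 16.20 and 15.01 as log2 signals, and Cldn2 was not well above background on any array. Slc4a5, a bicarbonate transporter of the choroid plexus, had 3.66, 4.57 and 5.78, and its contralateral to control ratio of -2.12 was -0.55 with normexp and -0.74 with 50 added. The 7 leptomeningeal genes had a median contralateral to control ratio of -0.85, with 7 of 7 below 0. The lowest was Col1a1 at -1.26, which ran from -1.41 to -0.97 over all settings and so was not below -1 in each. The median contralateral to ipsilateral ratio of the 7 genes was -0.32, with 7 of 7 below 0, and 0.07 without scaling. Less the median of all detected genes it was below 0 in every setting (-0.30 to -0.16). Their summed signal was 7302 on the contralateral, 9859 on the ipsilateral and 12795 on the control array, with Col1a2 the brightest on each, and 3110, 4006 and 5237 without it. Brainstem and midbrain genes had a median contralateral to ipsilateral ratio of -0.27, with 9 of 9 detected genes below 0 but 4 of them measurable. Their median contralateral to control ratio was -0.0022 over the 9 detected genes, with 4 above 0 and 5 below. Over the 4 measurable ones it was -0.31, with the highest at -0.0022. Their median ipsilateral to control ratio was 0.62 over the detected genes but -0.05 over the measurable ones. Less the median of all detected genes, the ipsilateral to control median ran from -0.08 to 0.67 over all settings. The contralateral to ipsilateral median turned to 0.11 without scaling, and less that of all detected genes it was below 0 in every setting (-0.24 to -0.06). Their summed signal was 631 on the contralateral, 736 on the ipsilateral and 688 on the control array, with Th the brightest, and 7 of 16 genes, Chat and Slc6a4 among them, were not well above background on any array. The part of unequal amounts of these tissues in the Nrgn, Camkv and Tac1 values was not tested.

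The 10 named genes most like Nrgn were those at the smallest distance in the plane of the contralateral and ipsilateral ratios to control, over 3 arrays and among the 11254 measurable genes with a symbol. They were, from the nearest, Bpifa1, Camkv, Tnxa-ps1, Tac1, Ajuba, Nodal, Rgs17, Pfkfb4, Frem3 and Aplnr. Bpifa1, a secreted protein of airway epithelium, lay 0.05 away, its contralateral log2 signal being 6.51, its ipsilateral 4.55 and its control 4.73. With normexp background correction the contralateral to control ratio was 0.28 for Bpifa1, 0.39 for Nodal, 0.43 for Aplnr, 0.44 for Pfkfb4 and 0.54 for Rgs17, against 1.19 for Nrgn, and with the brightest probe of a gene it was 0.04 for Pfkfb4 and -0.07 for Rgs17, so their closeness depends on the processing. Camkv lay 0.31 and Tac1 0.45 away, and Aplnr, the apelin receptor, 0.81. Frem3, an extracellular matrix protein, had the highest contralateral to control ratio of the 10, at 2.57 (scanner error 0.25), but 1.11 with normexp, below the 1.23 of Tac1. Of the 10, 2 were in the lists and 8 were not, and 6 were read from 1 spot. Cck, the cholecystokinin gene of cortical neurons, is named after its values were seen: its 10 spots gave 9.91, 6.63 and 6.35, a contralateral to control ratio of 3.56 (scanner error 0.21), in the same order of arrays as Tac1.

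The contralateral to control ratio of Nrgn kept its direction in each of the 11 other ways of processing the arrays, from 1.15 with 50 added to the signal to 1.86 with scaling to the median. Its contralateral to ipsilateral ratio was 0.96 with normexp, the 1 setting below 1. Bcl11b ran from 0.34 to 1.83 in the contralateral to control ratio. The other members with such a ratio ran from -0.28 to 0.05 for Camk2a, -0.21 to 0.05 for Neurod6, 0.17 to 0.36 for Ppp1r1b and -0.44 to -0.25 for Drd1. Nrgn was thus the member above 1 in each way of processing, Bcl11b passed 1 in all but those with 50 added and with normexp, and the other 4 passed it in none. As Nrgn was chosen on this ratio of the same arrays, nothing is read from its place among the members.

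**Figure D4:**
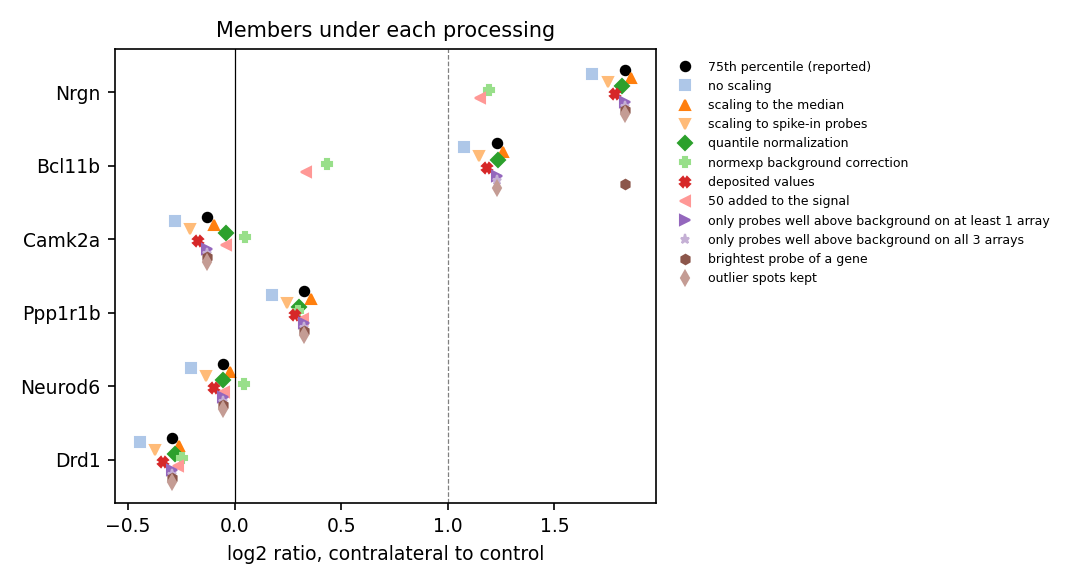
Contralateral to control log2 ratio of the 6 members that have one, under the reported processing (black) and 11 others (colours). Nrgn lies between 1.15 and 1.86, and Bcl11b falls from 1.23 to 0.34 with 50 added to the signal.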

How the data were processed

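Per the labels, Cy3-labelled RNA of each combined tissue sample went onto a 1-colour Agilent array. The authors deposited the intensity of each spot, background-subtracted but not scaled between arrays, from Agilent Feature Extraction 12.1.0.3. Their second table holds these intensities times 1 factor per array (1.12 contralateral, 1.45 ipsilateral, 1.04 control). Whether these are the normalization to control samples named in the study's methods could not be told. The arrays shared a slide and a scan.

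Here log2 intensities of 58717 non-control spots were shifted to a common 75th percentile, without 759 outlier spots, and averaged from spots to probes to genes. Symbols came from the RefSeq table of GRCr8 (17622 of 39957 accessions). Camk2a and Drd1 ratios use the probe marked on all 3 arrays. A bound sets the brighter signal against the higher of the dimmer signal and the lowest marked probe signal on that array.

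Genes count as beyond 1 by the threshold of the study's methods, log2 ratio above 1 or below -1. Genes named by rule are all members, the highest and lowest measurable contralateral ratio in each of 18 lists (for the calmodulin list the highest alone), list genes beyond 1, and the 10 nearest Nrgn. Outside this rule, genes are named as examples of a list, as its brightest, or for probes not well above background on every array. Cck, Gap43, Pcp4, Pdyn and Cux2 were named after their values were seen. Members and lists were chosen with earlier results of these data known. Normexp used limma 3.58.1 on median signals. Other steps used Python 3.11.15 with pandas 2.3.3, after tests on simulated data.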

Additional observations from a re-analysis of the deposited data

Results flagged for a closer look

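Each gene below has a contralateral and an ipsilateral log2 ratio to control of opposite sign and differs between the MCAO sides by more than 1. With 1 array a side, the difference was not tested for any of them. For Nrgn the contralateral to ipsilateral ratio was 2.04, with ratios to control of 1.83 for the contralateral and -0.21 for the ipsilateral array. Among the genes nearest to Nrgn it was 2.75 for Frem3, 1.97 for Bpifa1, 1.88 for Aplnr, 1.57 for Tnxa-ps1 and 1.33 for Rgs17. The ipsilateral ratios to control of Tnxa-ps1 (-0.03), Bpifa1 (-0.19), Frem3 (-0.19), Rgs17 (-0.20) and Nrgn lie within their scanner errors. With normexp background correction they turned to 0.12, 0.24, 0.25, 0.19 and 0.23, and that of Aplnr from -0.70 to 0.13, so the opposite sign is lost in all 6. The contralateral to ipsilateral ratio was then 0.05 for Bpifa1, 0.30 for Aplnr, 0.35 for Rgs17, 0.86 for Frem3, 0.89 for Tnxa-ps1 and 0.96 for Nrgn, and 0.00 for Rgs17 with the brightest probe of a gene. For choroid plexus genes it was -2.93 for Ttr, -1.80 for Folr1 and -1.21 for Aqp1. Their signs hold with normexp and without scaling, with Aqp1 at -0.87 and -0.83.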

How the results depend on the processing

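Of the results on members, gene counts and list medians, 877 values were the same within the scanner error (counts within 1.5 times) under 11 other settings and 69 moved. Of the other results 1286 were the same, 230 moved and 2 reversed, where reversed means that a ratio beyond 1 changed sign (smaller ratios that changed sign count as the same or moved). The cause was not tested. "Measurable" counts give genes above 1, then below -1. List medians here are less the median of all such genes. Without scaling the median of measurable genes shifted to -0.14 contralateral, -0.50 ipsilateral and 0.37 contralateral to ipsilateral, and with spike-in scaling to -0.07, -0.22 and 0.16. Signal over background limits the dim genes, as the Nrgn signal was 17.9 (contralateral), 3.43 (ipsilateral) and 5.26 (control) times the lowest probe signal well above background. These scalings shift an array by a constant, so Nrgn relative to the shift is 1.82, -0.24 and 2.05 by construction, and relative to the normexp median it was 1.14, 0.11 and 1.03.

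With 50 added to the signal, measurable counts were 58 and 37 contralateral, 95 and 31 ipsilateral, and 13 and 17 contralateral to ipsilateral, and counts of all genes contralateral 89 and 93. Nrgn was 1.15 contralateral and 1.25 contralateral to ipsilateral, Bcl11b 0.34 contralateral and 0.20 ipsilateral. Choroid plexus was -0.44 contralateral to ipsilateral, leptomeninges -0.37 contralateral, and 1 member was above 1 contralateral.

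With normexp background correction (offset 50), measurable counts were 51 and 20 contralateral, 116 and 12 ipsilateral, and 3 and 14 contralateral to ipsilateral, and counts of all genes contralateral 72 and 51. Nrgn was 1.19 contralateral, 0.23 ipsilateral and 0.96 contralateral to ipsilateral, Bcl11b 0.43 contralateral and -0.0903 contralateral to ipsilateral. Choroid plexus was -0.37 contralateral to ipsilateral and leptomeninges -0.40 contralateral. Above 1 were 1 member contralateral and 0 contralateral to ipsilateral. Nodal reversed to -0.0111 contralateral to ipsilateral.

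Without scaling, measurable counts were 325 below -1 contralateral (218 above 1), 134 and 1141 ipsilateral, and 164 and 111 contralateral to ipsilateral. Ipsilateral ratios were -0.74 for Nrgn, -0.25 for Camk2a, -0.48 for Neurod6, 0.32 for Bcl11b, -0.23 for Ppp1r1b and -1.11 for Drd1. Contralateral to ipsilateral ratios were 2.42 for Nrgn, -0.0339 for Camk2a, 0.27 for Neurod6, 0.76 for Bcl11b, 0.40 for Ppp1r1b and 0.67 for Drd1.

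With spike-in scaling, measurable counts were 261 and 254 contralateral, 367 and 404 ipsilateral, and 83 and 198 contralateral to ipsilateral. Ipsilateral ratios were -0.46 for Nrgn, -0.20 for Neurod6, 0.0499 for Ppp1r1b and -0.83 for Drd1. With quantile normalization, measurable genes below -1 were 276 ipsilateral, counts contralateral to ipsilateral were 114 and 165, Bcl11b was 0.77 and Camk2a -0.11 contralateral to ipsilateral.

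With the brightest probe of a gene, Bcl11b was 1.83 contralateral and 1.26 ipsilateral, 1 member was above 1 ipsilateral, and Rgs17 reversed to -0.0683 contralateral. Counts of all genes contralateral were 346 and 203 with only probes well above background on each array, and 1043 and 1343 with only probes so on at least 1. Scaling to the median, deposited values and kept outlier spots moved none of the values above.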

Other observations

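Markers of other brain regions were also read. Brainstem genes were mostly dim, with 9 of 16 on the arrays detected and 4 measurable. Slc6a3, the dopamine transporter, had a contralateral to control log2 ratio of -1.26, an ipsilateral to control ratio of -0.09 and a contralateral to ipsilateral ratio of -1.17. With normexp background correction the first was -0.17 and the last -0.54, and with 50 added to the signal -0.34 and -0.31. Glra1, the glycine receptor alpha 1 subunit, had the highest contralateral ratio of the 4 measurable genes, at 0.00 to 2 decimals. Thalamus genes had a median contralateral to control ratio of 0.05 over 6 detected genes (-0.10 without scaling), with Ntng1 at 0.25 and Prkcd at -0.27 among the 4 measurable ones. Pineal genes had a median of 0.27 over 3 detected genes, with Aanat at 0.27 and Asmt at -0.33 as the 2 measurable ones.

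Glial markers lay within 1 of the control array. The 6 oligodendrocyte genes had a median contralateral to control ratio of -0.14, from Cnp at -0.47 to Mobp at 0.28, and the 5 astrocyte genes -0.08, from Gfap at -0.73 to Gdf10 at 0.39. Otx2 of the choroid plexus had -0.02 and Dcn of the leptomeninges -0.03, the highest measurable ratios of their lists.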
